A study of Mus musculus with 8 samples.

Results

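The comparison set Flt3+ granulocyte progenitors (GPs) of mice labelled Irf8KO against Flt3+ GPs of wild-type mice. It rests on 4 of the 8 arrays of the series, chosen by their titles: 2 labelled Irf8KO and 2 labelled wild type, 1 of each from experiment 1 and 1 from experiment 2. The cells were sorted from bone marrow, received no treatment, and were taken as positive for the receptor Flt3; the other 4 arrays hold the Flt3- GPs of the same genotypes. The sources used here do not give the allele of the Irf8 deficiency, the strain and age of the mice or the number of animals in each sample. The p-values therefore measure only how far these samples differ among themselves, which may be technical spread, and the number of arrays limits the precision.

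Irf8 encodes interferon regulatory factor 8, a DNA-binding protein of haematopoietic cells. It often binds together with the ETS factor PU.1 at composite elements, and in myeloid progenitors it is known to favour monocytes and dendritic cells over neutrophils. Mice without it accumulate granulocytes, and their macrophages and dendritic cells are defective. The Flt3 receptor is carried by early multipotent, lymphoid-primed and dendritic cell progenitors, and its surface level drops as granulocyte progenitors mature.

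Signals are given on a log2 scale on which 0 is the 75th percentile over the probes of an array and 1 unit is a 2-fold step. The targeted gene and the sorted receptor were examined first. Irf8 read 5.80 and 5.87 on the wild-type arrays and 6.67 and 6.67 on the arrays labelled Irf8KO. Both arrays labelled Irf8KO stood above both wild-type arrays, by 0.84 (SE 0.051, adjusted p = 0.000226 by limma). The Irf8 signal was thus higher, not lower, where the labels say that the gene is deficient. The sources used here do not give the position of this probe relative to the altered part of the gene. The labels are therefore not checked by it, and every direction below rests on them. Flt3 read 6.21 and 6.21 in wild type and 6.29 and 6.30 in Irf8KO, a difference of 0.08 (SE 0.0381) that did not pass the test (limma adjusted p = 0.156).

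On each of the 4 arrays 57.6 to 60.1% of 59305 spots passed the scanner's test against background, and saturation was not seen. Arrays of the same group correlated across genes at r = 0.9958 in wild type and r = 0.9975 in Irf8KO, and the median SD per gene was 0.070 and 0.046. All arrays lay on 1 slide, with the wild-type arrays in row 1 and the arrays labelled Irf8KO in row 2, so that position on the slide and genotype cannot be told apart.

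The labelled cell type was set against marker genes of granulocyte progenitors and of other cells that a sort from bone marrow could hold. The counts of markers called stand beside 16.5% of all tested genes called higher and 12.5% called lower. With so few markers in a set, a small count is not read as a result. All 9 granulocyte progenitor markers, among them Elane, Mpo, Prtn3 and Kit, were well above background on all 4 arrays. Their summed signal, in multiples of the 75th percentile, was 979 and 900.0 in wild type and 1390 and 1390 in Irf8KO. The arrays labelled Irf8KO were thus the higher pair, with 6 markers called higher and 2 lower. Monocyte markers summed to 67.7 and 70.7 in wild type and to 143 and 147 in Irf8KO, and 4 of 8 tested were called higher.

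Erythroid markers summed to 46.6 and 46.7 in wild type and to 1.81 and 1.73 in Irf8KO, and all 7 tested were called lower. Alas2 was not well above background on either array labelled Irf8KO. Platelet and megakaryocyte markers summed to 13.6 and 14.4 against 4.31 and 4.63, with all 8 called lower, and Gp1ba, Gp5 and Ppbp were not well above background in Irf8KO. Basophil and mast cell markers stood at 8.40 and 8.91 against 2.90 and 3.01, with 4 of 6 tested called lower and none higher.

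Eosinophil markers summed to 4.06 and 4.21 against 2.19 and 2.24, with 2 of 6 called lower and 1 higher. The 5 stem cell markers summed to 34.5 and 36.3 against 19.2 and 19.9, with 4 called lower. The remaining marker sets showed smaller or mixed differences. Neutrophil markers summed to 186 and 164 in wild type and to 189 and 192 in Irf8KO, although 8 of 9 were called higher, since the bright Csf3r differed by 0.04 and was not called. Plasmacytoid dendritic cell markers summed to 244 and 212 against 254 and 260.0, with 2 of 6 called higher and 2 lower. Conventional dendritic cell markers summed to 3.30 and 3.48 against 6.57 and 6.86, with 1 of 4 tested called higher and 2 lower. The higher one was Itgax, at log2 values of 0.33 and 0.40 against 2.42 and 2.48. B cell markers summed to 13 and 13.6 against 18.4 and 18.9, with 2 of 5 tested called higher and 1 lower. Of these, Vpreb1 rose from log2 values of 0.78 and 0.92 to 2.72 and 2.75, and Ms4a1 fell. T and NK cell markers summed to 12.4 and 10.5 against 11.1 and 10.4, with none of 4 tested called. In these bulk samples fewer cells of a type and less RNA of it per cell cannot be told apart, and the part that the makeup of the sorted cells had in the differences below was not tested.

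**Figure D1:**
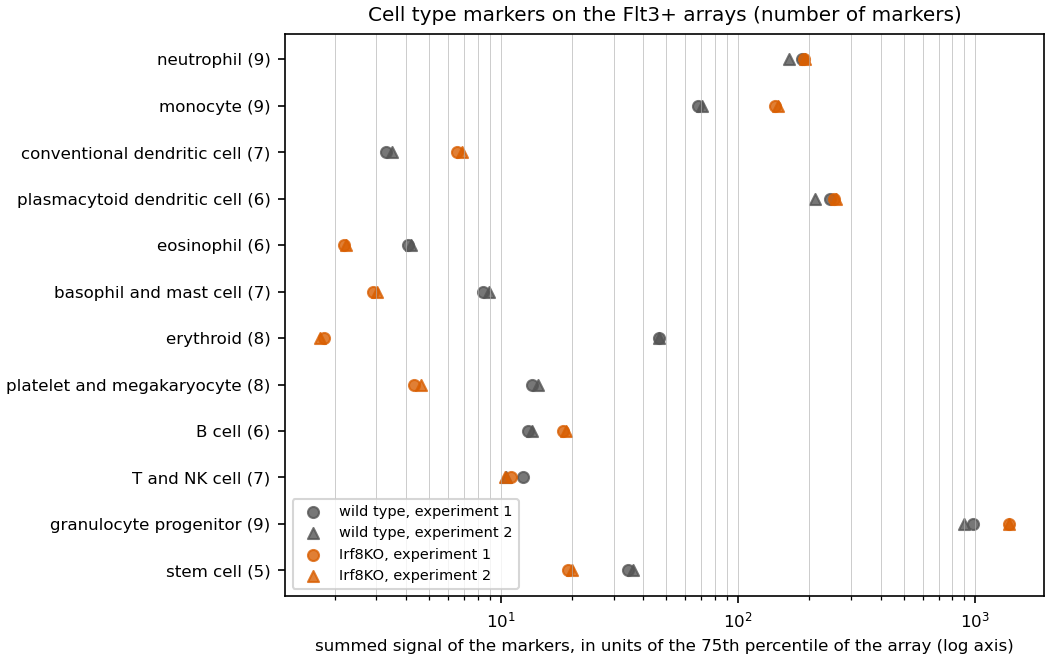
Summed signal of the markers of 12 cell types on each of the 4 Flt3+ arrays, in multiples of the 75th percentile of the array on a log axis; grey symbols are wild type, orange symbols Irf8KO, circles experiment 1 and triangles experiment 2. The erythroid sum stands at 46.6 and 46.7 in wild type and at 1.81 and 1.73 in Irf8KO, and the monocyte sum at 67.7 and 70.7 against 143 and 147.

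Of 14110 genes tested, 4089 (29.0%) passed the test at an adjusted p under 0.05 by limma, 2323 of them higher in Irf8KO (16.5%) and 1766 lower (12.5%). The median difference over all genes was 0.04. At least 2-fold differences were found for 597 of the called genes (4.23%), 309 higher (2.19%) and 288 lower (2.04%). The arrays of the groups did not overlap for 9402 genes (66.6%), with Irf8KO above for 5510 (39.1%) and below for 3892 (27.6%), which is why a lack of overlap by itself is not read as a result. Of the called genes, 20 were not well above background in either genotype. The split into higher and lower depended on the scale: with quantile normalization 1991 genes were called higher and 2174 lower, and with the 75th percentile taken over spots 2011 and 2001. The count also depended on single arrays, with 2185 genes called without Irf8KO replicate 1 and 1995 without Irf8KO replicate 2.

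**Figure D2:**
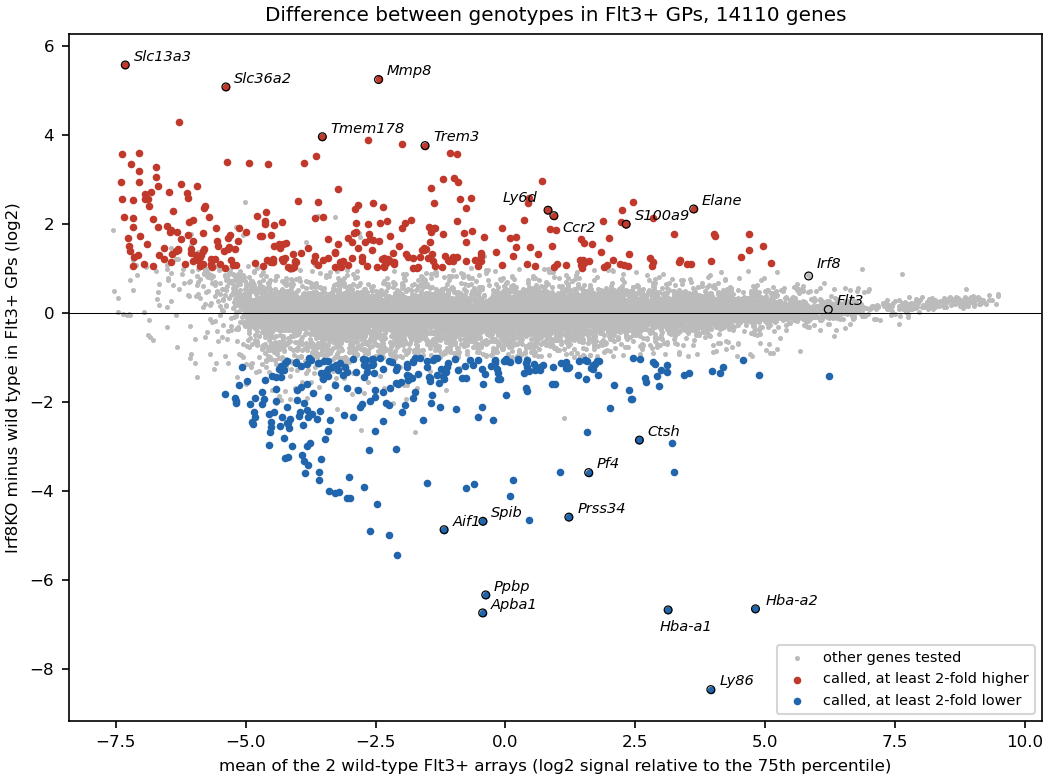
Difference between Irf8KO and wild type in Flt3+ GPs (log2, vertical axis) against the mean of the 2 wild-type arrays (log2 signal relative to the 75th percentile, horizontal axis) for 14110 genes; red and blue points are called genes at least 2-fold higher (309) or lower (288). Ly86 lies lowest at -8.46 and Slc13a3 highest at 5.58, while Irf8 at 0.84 and Flt3 at 0.08 lie near the bulk of the genes.

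The gene with the lowest ratio was Ly86, which encodes MD-1, the secreted partner of the Toll-like receptor homologue Cd180. It read 3.94 and 3.96 in wild type and -4.43 and -4.58 in Irf8KO. Both wild-type arrays were far above both Irf8KO arrays, and Ly86 was still well above background in Irf8KO. The difference was -8.46 (SE 0.128, adjusted p = 1.99e-06 by limma), or 351-fold. Apba1, an adaptor protein of the Munc18-interacting family, read -0.51 and -0.37 against -7.26 and -7.08, which was not well above background, so it was at least 29.6-fold lower.

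The alpha globin genes came next. Hba-a2 read 4.81 and 4.81 in wild type and -1.71 and -1.95 in Irf8KO, a difference of -6.64 (SE 0.0835, 99.8-fold), and Hba-a1 read 3.1 and 3.15 against -3.36 and -3.72. The arrays of each genotype lay close together and the genotypes far apart for both genes, but probes of these near-identical copies can share hybridisation. Ppbp, the platelet basic protein, read -0.34 and -0.42 in wild type and was not well above background in Irf8KO (at least 30.8-fold lower).

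The other 10 genes of the lowest 15 covered several cell types. Aif1, an actin-binding protein of macrophages, was at least 17.7-fold lower, reading -1.27 and -1.09 against -5.94 and -6.15. Spib, an ETS factor of B cells and plasmacytoid dendritic cells, was at least 24.5-fold lower; its wild-type arrays stood at -1.17 and 0.30, wide apart, and its Irf8KO arrays at -5.41 and -4.81, still below both. Prss34, a basophil protease, read 1.19 and 1.25 against -3.43 and -3.29 (23.9-fold lower). Hbb-b2, an adult beta globin, was 25-fold lower (SE 0.551 on the log2 scale). Vcam1, an adhesion molecule of macrophages and endothelium, was at least 7.19-fold lower, Alas2, the erythroid enzyme of haem synthesis, at least 5.06-fold, Slc38a5, an amino acid transporter, at least 4.87-fold, Upb1, a pyrimidine-degrading enzyme, at least 8.52-fold and Cavin2, a caveolar protein of platelets, at least 6.55-fold. E030013I19Rik, an uncharacterised transcript, was at least 9.47-fold lower, with wild-type arrays at -1.44 and -2.72. All 15 had a limma adjusted p of at most 0.00271.

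At the other end, Mmp8, the neutrophil collagenase, read -2.52 and -2.37 in wild type and 2.79 and 2.82 in Irf8KO. Both Irf8KO arrays were far above both wild-type arrays, and the difference was 5.25 (SE 0.0636, adjusted p = 1.57e-06 by limma), or 38-fold. Slc13a3, a transporter of dicarboxylates, had the highest fitted difference (5.58); it was not well above background in wild type and stood at -1.72 and -1.76 in Irf8KO, at least 11.2-fold higher. Slc36a2, a proton-coupled amino acid transporter, was likewise dim in wild type and at least 29.5-fold higher in Irf8KO (-0.36 and -0.23).

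Trem3, a myeloid activating receptor, rose from -1.49 and -1.61 to 2.19 and 2.25 (13.6-fold). The Mas-related receptors Mrgpra2a (12.1-fold) and Mrgpra2b (11.9-fold), found on neutrophils, rose by similar amounts; they are close copies whose probes can share hybridisation. Clec5a, a lectin receptor of monocytes and neutrophils, was at least 2.69-fold higher. Among genes without a known part in granulocytes, Tmem178, a transmembrane protein, rose 15.6-fold (-3.55 and -3.50 to 0.42 and 0.46), Abca9, an ABC transporter, 14.8-fold, Tctex1d1, a dynein light chain relative, 14-fold, and Ednra, an endothelin receptor, 11.6-fold. Insm1, a zinc finger factor of endocrine cells, was at least 9.46-fold higher, Otogl at least 9.68-fold, and Rbp4, the retinol carrier of plasma, at least 3.43-fold. Cp, ceruloplasmin, rose by 3.38 on the log2 scale (10.4-fold), with 1 of the 2 wild-type arrays well above background.

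**Figure D3:**
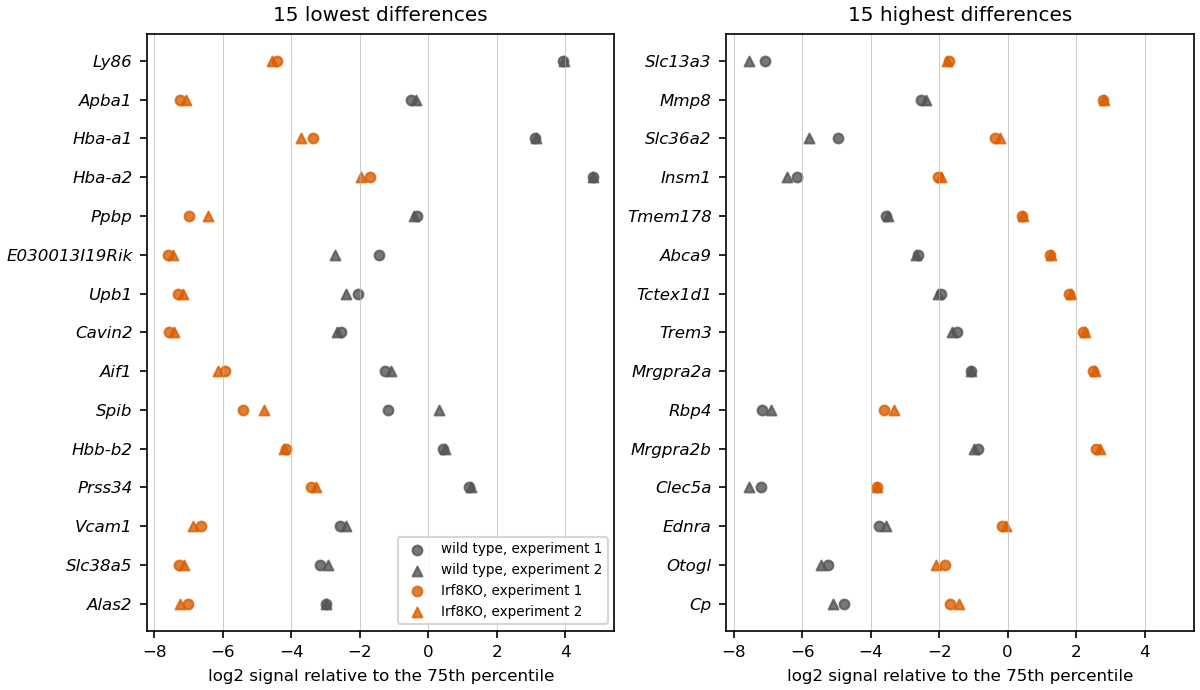
Log2 signal relative to the 75th percentile (horizontal axis) on the 2 wild-type (grey) and 2 Irf8KO (orange) Flt3+ arrays for the 15 genes with the lowest and the 15 with the highest difference; circles are experiment 1 and triangles experiment 2. The pairs lie close together for Ly86 (3.94 and 3.96 against -4.43 and -4.58) and Mmp8 (-2.52 and -2.37 against 2.79 and 2.82), while the wild-type arrays of Spib (-1.17 and 0.30) and E030013I19Rik (-1.44 and -2.72) lie apart.

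Promoter sequences of 5 genes that fell are shown because IRF8 binds DNA and because the globin copies moved together. The windows of Aif1, Itga2b and both alpha globins were taken on condition that they held a match. Their matches therefore do not stand for the genes that fell. They are the 250 bases upstream of the annotated start, from RefSeq (GRCm38.p6), 5′ to 3′ on the strand of the gene, with a motif match in capitals. The motifs searched on both strands were GGAANNGAAA (composite ETS-IRF element), GAAANNGAAA (interferon response element), and GATA with A or T before it and A or G after it (GATA word). A match is a description of letters, not a binding site.
Ly86, chr13:37345095-37345344, plus strand: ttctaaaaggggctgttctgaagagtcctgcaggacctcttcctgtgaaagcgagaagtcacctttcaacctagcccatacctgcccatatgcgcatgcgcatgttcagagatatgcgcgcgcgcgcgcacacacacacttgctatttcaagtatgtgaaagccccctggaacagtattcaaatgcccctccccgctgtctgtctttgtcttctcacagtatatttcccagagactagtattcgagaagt
Aif1, chr17:35176053-35176302, minus strand: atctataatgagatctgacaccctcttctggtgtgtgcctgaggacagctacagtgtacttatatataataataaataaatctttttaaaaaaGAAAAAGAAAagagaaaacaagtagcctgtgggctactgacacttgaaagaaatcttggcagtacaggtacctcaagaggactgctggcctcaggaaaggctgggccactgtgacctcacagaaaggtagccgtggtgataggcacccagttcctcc
Itga2b, chr11:102469884-102470133, minus strand: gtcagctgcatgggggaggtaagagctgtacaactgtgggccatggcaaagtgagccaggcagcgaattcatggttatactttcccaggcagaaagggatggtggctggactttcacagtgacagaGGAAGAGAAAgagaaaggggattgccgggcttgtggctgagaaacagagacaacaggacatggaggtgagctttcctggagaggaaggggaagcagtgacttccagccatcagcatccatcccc
Hba-a1, chr11:32283422-32283671, plus strand: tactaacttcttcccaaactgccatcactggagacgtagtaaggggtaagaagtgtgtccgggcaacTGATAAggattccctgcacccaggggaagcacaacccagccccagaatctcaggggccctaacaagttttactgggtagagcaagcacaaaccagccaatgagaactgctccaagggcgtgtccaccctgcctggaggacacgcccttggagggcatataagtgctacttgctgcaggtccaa
Hba-a2, chr11:32296242-32296491, plus strand: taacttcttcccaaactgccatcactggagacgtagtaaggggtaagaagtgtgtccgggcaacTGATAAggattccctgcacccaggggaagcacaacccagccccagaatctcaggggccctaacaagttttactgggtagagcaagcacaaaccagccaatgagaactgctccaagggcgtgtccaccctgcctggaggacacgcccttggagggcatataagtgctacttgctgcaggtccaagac

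The window of Ly86, the most reduced gene, held none of these words. That of Aif1 held GAAAAAGAAA starting 157 bases before the start, and TGATAG 21 bases before it. Itga2b, the platelet integrin alpha IIb, held GGAAGAGAAA at 124 bases, overlapped by GAAAGAGAAA at 118. Both alpha globin windows held TGATAA, at 183 bases in Hba-a1 and 186 in Hba-a2, and were identical over a run of 247 of 250 bases. Across windows, GGAANNGAAA was found in 2.30% of 32851 RefSeq promoters of this length, in 2.48% of 11302 tested genes with a window, in 12 of 225 called genes at least 2-fold lower (5.33%) and in 7 of 219 at least 2-fold higher (3.20%). GAAANNGAAA was found in 2.98% of all promoters, 3.36% of tested genes, 7.11% of the lower and 6.85% of the higher genes. A GATA word was found in 26.54% of all promoters, 22.16% of tested genes, 27.56% of the lower and 27.85% of the higher genes.

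Named groups of genes are described below by the number of tested members that were called and by their median, beside 16.5% higher, 12.5% lower and a median of 0.04 over all genes. A single log2 value given for a member is its difference between the genotypes. These shares do not hold for fits with an array left out. Fewer genes were called over all genes in each such fit, so a smaller count there does not by itself set a list apart.

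**Figure D4:**
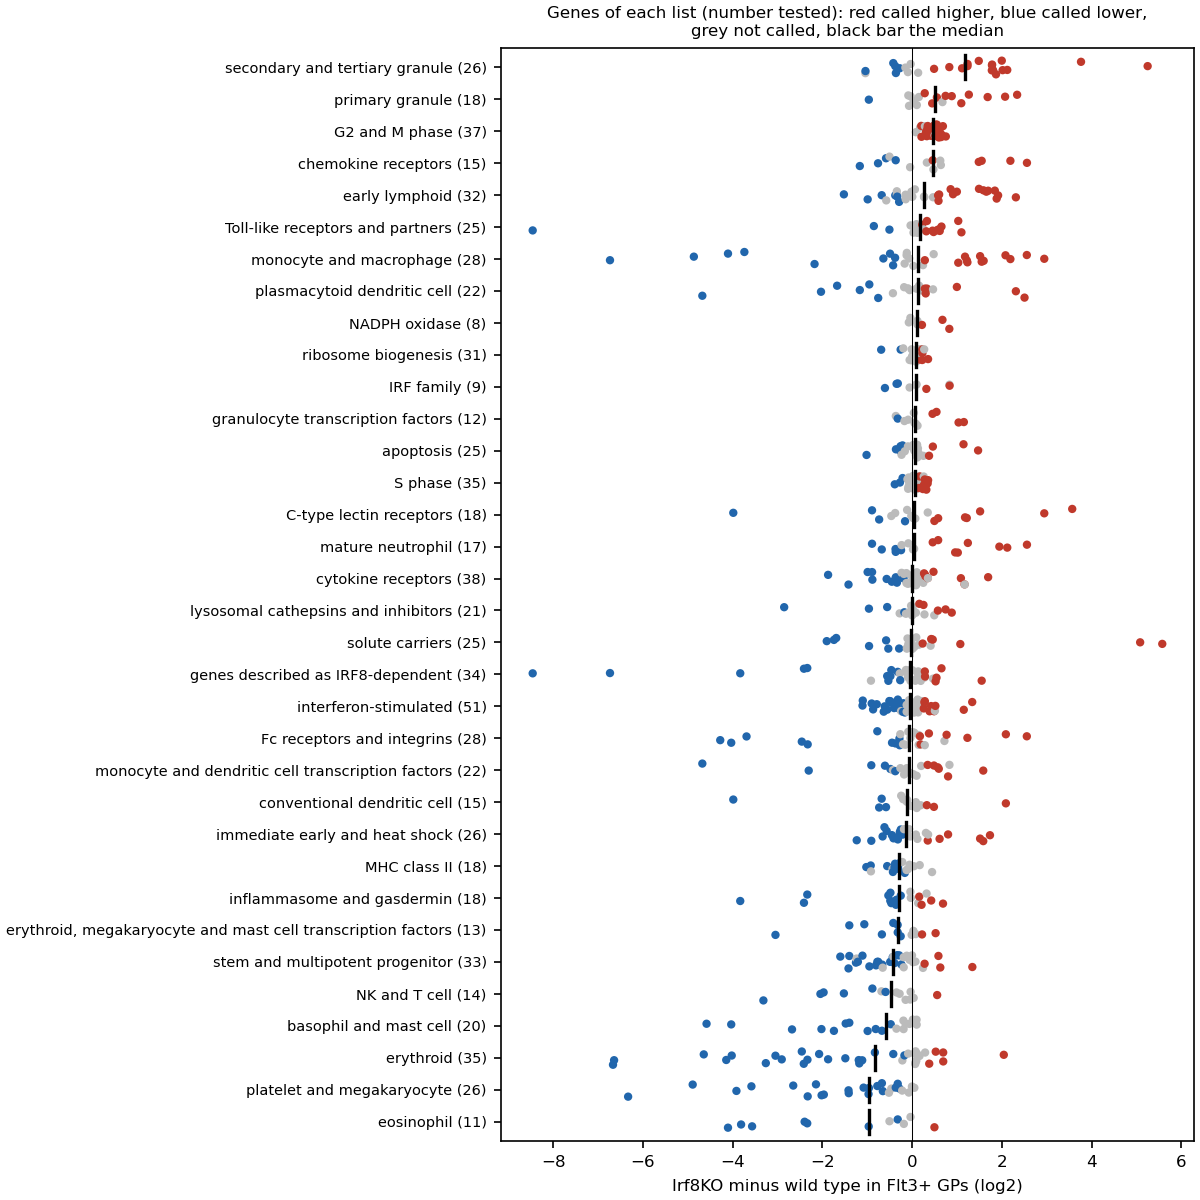
Difference between Irf8KO and wild type in Flt3+ GPs (log2, horizontal axis) for the tested genes of 34 lists; each point is a gene, red called higher, blue called lower, grey not called, and the black bar is the median. The medians run from -0.97 (eosinophil) to 1.17 (secondary and tertiary granule).

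Ly86 works with Cd180, and Toll-like receptors with their own partners, so these genes were set side by side. Of 25 tested, 11 rose and 3 fell, with a median of 0.18. While Ly86 fell 351-fold, Cd180 rose by 0.66 (-2.29 and -2.23 to -1.64 and -1.57, adjusted p = 0.00273 by limma). The homologous pair of the lipopolysaccharide receptor, Tlr4 and Ly96, differed by 0.08 and 0.18, neither called. Tlr5, the flagellin receptor, was at least 1.58-fold higher, Cd14, the lipopolysaccharide co-receptor, rose by 1.03 and Tlr6 by 0.59, whereas Tlr12 fell by 0.85 and Irak3, an inhibitor of the pathway, fell by 0.51. Tlr9 (0.10) and the adaptor Myd88 (0.12) were not called. Without Irf8KO replicate 2, 7 of these genes were called higher.

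Of 34 tested genes listed as known IRF8-dependent genes, 11 fell and 6 rose, with a median of -0.05. The genes that fell included Ly86 and Apba1 and 3 members of the Naip family, receptors that recognise bacterial flagellin or secretion needles for the inflammasome. Naip6 read -0.66 and -0.54 in wild type and -4.06 and -4.80 in Irf8KO (14.2-fold lower), and Naip2 read -0.30 and -0.18 against -2.58 and -2.72 (5.32-fold). Naip1 was at least 1.43-fold lower (limma adjusted p = 0.0407) but was not called when any 1 of the 4 arrays was left out or with normexp, which gave -0.001, whereas Naip5 read 6.74 and 6.59 against 6.78 and 6.82 and was not called. The arrays of Naip6 and Naip2 did not overlap between genotypes; these close copies can share hybridisation. Cx3cr1 rose by 1.55 and Cebpa by 0.54.

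Of 18 tested inflammasome and gasdermin genes, Naip genes included, 10 fell and 4 rose, with a median of -0.30; of the 14 other than Naip genes 7 fell and 4 rose. The median was -0.14 with normexp, -0.18 with no filter on dim probes and -0.19 with the mean of probes. Casp1, the caspase that the inflammasome activates, fell by 0.48, the substrate Il18 by 0.46, the adaptor Pycard by 0.35 and Mefv, pyrin, by 0.53. Nlrc4, which joins Naip proteins, rose by 0.69 and the DNA sensor Aim2 by 0.43. Nlrp3 stood at 0.32 and was not called. Il18 was not called without wild-type replicate 2 or either Irf8KO array. The 4 higher calls became 2 with normexp, with only the 4 Flt3+ arrays in the fit, with the percentile over spots, and without wild-type replicate 1 or either Irf8KO array, and the 10 lower calls 6 without Irf8KO replicate 1.

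Of the 9 tested interferon regulatory factors, 2 rose (Irf8 and Irf1, 0.32) and 3 fell (Irf5 by 0.60, Irf2 by 0.35 and Irf9 by 0.32). Irf4, the closest relative of Irf8, stood at 0.83, from -3.38 and -3.41 in wild type to -2.53 and -2.60 in Irf8KO. Its arrays did not overlap, but the difference did not pass the test (limma adjusted p = 0.259). It was called higher with only the 4 Flt3+ arrays in the fit (0.83, limma adjusted p = 0.00452) and with normexp (0.53, limma adjusted p = 0.00169). Irf7 stood at -0.06 and Irf3 at 0.10. Irf5 was not called without Irf8KO replicate 2 and Irf2 without Irf8KO replicate 1.

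Transcription factors of granulocytes were next. Of 12 tested, 4 rose and 1 fell, with a median of 0.07. Cebpd rose from 2.78 and 2.88 to 4.0 and 3.98 (by 1.15), and Cebpb from 1.90 and 1.88 to 2.91 and 2.94 (by 1.04). For these 2 C/EBP factors both Irf8KO arrays stood above both wild-type arrays. Cebpa (0.54) and Gfi1 (0.46) rose less, Cebpe, the factor of late granulocyte maturation, fell by 0.32 (not called without Irf8KO replicate 1), and Spi1, which encodes PU.1, differed by 0.06 and was not called.

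Of 22 tested monocyte and dendritic cell factors, 6 rose and 6 fell, with a median of -0.08. Besides Spib, Maf was at least 2.56-fold lower (with normexp -0.09 and not called), Egr1 fell by 0.91 and Stat3 by 0.48, while Egr2 rose by 1.59 and Nr4a1 by 0.80. Klf4, a factor of monocytes, stood at -0.12 and was not called.

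Of 18 tested genes of primary granules and early granulocytes, 10 rose and 1 fell, with a median of 0.50 (0.43 when genes dim in 1 genotype are set to their bound). Elane, neutrophil elastase, read 3.66 and 3.58 in wild type and 5.96 and 5.96 in Irf8KO (5.07-fold higher). Prtn3, proteinase 3, read 4.54 and 4.51 against 5.82 and 5.75 (2.4-fold), and Ctsg, cathepsin G, rose by 0.88. In these serine proteases both Irf8KO arrays were above both wild-type arrays. Igsf6 rose by 2.07, Ms4a3 by 1.68, Prss57 by 1.10 and Mpo, myeloperoxidase, by 0.55, whereas Cd63, a granule membrane protein, fell by 0.96. Mpo was not called without wild-type replicate 2 or either Irf8KO array.

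Of 26 tested genes of secondary and tertiary granules, 16 rose and 5 fell, with a median of 1.17 (0.84 when dim genes are set to their bound). The median was 0.57 with normexp and 0.66 with no filter. Of 35 on the list 9 did not pass the filter on dim probes. S100a9 rose from 2.34 and 2.30 to 4.30 and 4.35 and its partner S100a8 from 0.97 and 0.98 to 2.84 and 2.84, 4.0-fold and 3.65-fold. Mmp9, gelatinase B, was not well above background in wild type and at least 1.49-fold higher in Irf8KO. Retnlg (2.02), Ngp (1.81), Ltf, lactoferrin (1.78), and Camp, cathelicidin (1.78), rose as well. Padi4, the histone deiminase, fell by 1.04 and Slpi, a protease inhibitor, by 0.42; 3 of these 5 lower calls were left without Irf8KO replicate 1.

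Genes of mature neutrophils were split. Of 17 tested, 8 rose and 5 fell, with a median of 0.04, the value of all genes. Among the 14 well above background on all 4 arrays 5 rose and 5 fell, with a median of -0.03. Fpr2, a formyl peptide receptor, was at least 1.81-fold higher and G0s2 rose by 1.24, while Clec4e fell by 0.89 and Ccl6 by 0.68. The receptor Csf3r (0.04) was not called. Of 8 subunits and partners of the NADPH oxidase, Cybb (0.83), Ncf1 (0.68) and Ncf4 (0.22) rose and none fell, with a median of 0.12; Ncf4 was not called without wild-type replicate 1 or either Irf8KO array.

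Of 35 tested erythroid genes, 20 fell and 5 rose, with a median of -0.83, which was -0.79 in experiment 1 and -0.87 in experiment 2. The size of the median depended on dim genes: it was -0.17 with normexp (16 lower), -0.53 with no filter, and -0.13 with 13 of 28 lower among genes well above background on all 4 arrays. Besides the alpha globins, Hbb-bt, a beta globin, fell from 3.20 and 3.19 to 0.28 and 0.30 (7.49-fold), and Hbb-bs was at least 4.35-fold lower. Probes of the beta globin copies, like those of the alpha globins, can share hybridisation. Kel, a blood group protein, was at least 2.12-fold lower (with normexp -0.24 and not called), Slc4a1, the band 3 anion exchanger, fell by 2.07, Epor, the erythropoietin receptor, by 1.87 and Car2, a carbonic anhydrase, by 0.83. Some haem enzymes were not among the falling genes: Urod stood at 0.09 and Fech at 0.05, neither called, and Cpox rose by 0.38. Tfrc, the transferrin receptor, rose by 0.69 and Mt1, a metallothionein, by 2.04. The erythroid marker sum, at 46.6 and 46.7 against 1.81 and 1.73, includes Hba-a1, Hba-a2 and Alas2 of this list. It is therefore not a separate observation, and its part in these differences was not tested.

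Of 26 tested platelet and megakaryocyte genes, 20 fell and none rose, with a median of -0.97 (-0.61 with normexp). Pf4, platelet factor 4, read 1.54 and 1.67 in wild type and -2.02 and -1.94 in Irf8KO (12-fold lower). Gp1ba, a subunit of the von Willebrand factor receptor, was at least 6.11-fold lower, and Itga2b read -0.55 and -0.49 against -2.91 and -2.79. Each of these 3 genes had wild-type arrays above both Irf8KO arrays. Treml1 fell by 2.14 and Vwf by 0.97, whereas Cd9 (0.05) and Fermt3 (-0.07) were not called.

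Factors that act in these lineages fell with them. Of 13 tested, 8 fell (5 with only the 4 Flt3+ arrays in the fit) and 2 rose, with a median of -0.32. Gata1 read -2.02 and -2.18 in wild type and -5.52 and -4.77 in Irf8KO, a difference of -3.04 (SE 0.23), with 1 of the 2 Irf8KO arrays well above background. Gata2 read 1.79 and 1.78 against 0.39 and 0.39 (fell by 1.40), Ikzf2 fell by 1.06, Zfpm1, a partner of GATA factors, by 0.67 and Klf1, the erythroid Krüppel-like factor, by 0.42. Myc rose by 0.52, and Gfi1b (0.08) was not called. The fall of Klf1 depended on the background correction: with normexp its difference was 0.08 and not called (limma adjusted p = 0.458), and it was also not called without wild-type replicate 2.

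Of 11 tested eosinophil genes, 7 fell and 1 rose, with a median of -0.97. The median was -0.41 with normexp, and -0.50 with 5 of 9 lower among genes well above background on all 4 arrays. Prg2, major basic protein, read 1.02 and 1.08 in wild type and -2.47 and -2.56 in Irf8KO (11.8-fold lower), and Ear2, an eosinophil-associated ribonuclease, read 0.07 and 0.12 against -4.14 and -3.88. Both genes separated the genotypes fully. Ear1 (at least 13.6-fold) and Ear10 (-2.40) fell as well, but the Ear copies can share hybridisation. Epx, eosinophil peroxidase, rose by 0.50, against the direction of the other granule proteins of this cell, and the receptor Il5ra (-0.18) was not called, except with the experiment as a block in the fit (limma adjusted p = 0.0256).

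Of 20 tested basophil and mast cell genes, 11 fell and none rose, with a median of -0.57 (-0.33 when dim genes are set to their bound). Cpa3, mast cell carboxypeptidase, read 1.49 and 1.64 in wild type and -1.17 and -1.06 in Irf8KO (6.39-fold lower). Fcer1a, the alpha chain of the IgE receptor, was at least 4.11-fold lower, Il1rl1, the IL-33 receptor, fell by 0.99 (with normexp -0.20 and not called) and Mcpt8, a basophil protease, by 0.48. The 3 probes of Il1rl1 ran from -0.99 to -0.02. Kit stood at 0.02 and Hdc, the histamine-forming enzyme, at 0.02, neither called. The marker sum of these cells was 8.40 and 8.91 against 2.90 and 3.01. It includes Prss34, Cpa3 and Fcer1a of this list, so it is not a separate observation, and its part was not tested. With normexp background correction 7 of the 20 genes fell and the median was -0.09, and with no filter it was -0.19.

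Of 33 tested genes of stem cells and multipotent progenitors, 18 fell and 4 rose, with a median of -0.42. Hlf, a factor of stem cell maintenance, read 3.51 and 3.52 in wild type and 2.57 and 2.55 in Irf8KO. Procr, the protein C receptor of stem cells, read 1.62 and 1.74 against 0.38 and 0.47, and Meis1, a homeobox factor, 4.31 and 4.41 against 3.56 and 3.65. The wild-type arrays were the higher ones for all 3. Esam fell by 1.6 and Tie1, an endothelial receptor, by 1.21. Prom1 rose by 1.34 (0.42 on its other probe) and Hmga2 by 0.63, and Cd27 (0.07) was not called.

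Genes of monocytes and macrophages changed in both directions and by large amounts. Of 28 tested, 12 rose and 9 fell, with a median of 0.14, which was -0.03 with no filter, 0.09 without Irf8KO replicate 1, and 0.26 with 5 lower among the 22 genes well above background on all 4 arrays. Ccr2, the chemokine receptor of inflammatory monocytes, rose from 0.91 and 0.95 to 3.09 and 3.16 (4.57-fold). F13a1, the coagulation factor of monocytes, rose by 1.52, Ms4a6d by 2.08, Adgre1, which encodes F4/80, by 1.59 and Csf1r, the M-CSF receptor, by 0.28. At the same time the complement genes of macrophages C1qc and C1qa were at least 3.34-fold and 2.82-fold lower, not well above background in Irf8KO, and Mpeg1, perforin 2, fell by 0.49. Vcan (0.03), Ms4a6c (-0.12) and Fn1 (-0.17) were not called.

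Of 28 tested Fc receptors, integrins and adhesion molecules, 7 rose and 10 fell, with a median of -0.06. Among the 23 genes well above background on all 4 arrays 7 rose and 6 fell, with a median of 0.05. Fcgr3, a low-affinity IgG receptor, rose from -0.92 and -0.84 to 1.66 and 1.69 (5.88-fold), Fcgr4 by 1.23 and their shared chain Fcer1g by 0.77. Itgax, which encodes CD11c, rose from 0.33 and 0.40 to 2.42 and 2.48 (4.26-fold), whereas Itgam, which encodes CD11b, stood at -0.15 and was not called. The 7 higher calls became 4 without wild-type replicate 1 or Irf8KO replicate 2. Itga2, a collagen receptor subunit, was at least 2.2-fold lower (with normexp -0.23 and not called) and Fcrla, a B cell protein related to Fc receptors, at least 5.0-fold.

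Of 18 tested C-type lectin receptors, 7 rose and 4 fell, with a median of 0.05 (0.01 when dim genes are set to their bound). Clec4a3 was at least 2.19-fold higher, and Clec12a rose by 1.22. Clec9a, the receptor of cross-presenting dendritic cells, read -3.58 and -3.19 in wild type and was not well above background in Irf8KO, at least 3.83-fold lower. Without Irf8KO replicate 2, 4 lectin receptors were called higher. Among 15 tested chemoattractant receptors, 5 rose and 4 fell, with a median of 0.46 (0.33 when dim genes are set to their bound). The median was 0.18 with no filter and 0.14 among the 12 genes well above background on all 4 arrays. Cx3cr1 read 1.62 and 1.73 against 3.16 and 3.29 (2.93-fold higher), Fpr1, a formyl peptide receptor, was at least 2.55-fold higher, Ccr9 fell by 1.17, Cxcr3 by 0.76 and Cxcr4 by 0.36.

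Of 15 tested genes of conventional dendritic cells, 4 fell and 3 rose, with a median of -0.11. Besides Clec9a and Itgax, Clec10a fell by 0.73 and Cd24a by 0.68, and Id2 rose by 0.49. Zbtb46, a factor of this lineage, stood at -0.12 and was not called, and Xcr1 was not well above background on any of the 4 arrays. The median of the list was 0.08 without wild-type replicate 1, 0.01 with normexp and -0.01 with no filter, so its sign depended on the setting. Of 22 genes of plasmacytoid dendritic cells, 6 rose (3 without Irf8KO replicate 2) and 6 fell, with a median of 0.13, which was 0.004 without wild-type replicate 2, 0.08 without Irf8KO replicate 1, 0.02 with the mean of probes, 0.03 with quantile normalization and 0.06 with normexp. Rnase6, a ribonuclease, fell by 1.67 and Lair1, an inhibitory receptor, by 0.95, while Cox6a2, a respiratory chain subunit, rose by 2.51. Siglech, a lectin that defines these cells, differed by 0.16 on its brightest probe and was not called; the mean of its 2 probes gave -0.53 (limma adjusted p = 0.00711), since the probes stood at 0.16 and -1.22.

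Of 18 tested genes of MHC class II presentation, 9 fell and none rose, with a median of -0.29, which was -0.33 in experiment 1 and -0.23 in experiment 2. Cd74, the invariant chain, read 0.05 and 0.04 in wild type and -0.82 and -0.93 in Irf8KO. H2-DMb2, a subunit of the peptide loading factor, read -2.90 and -2.97 against -3.90 and -4.02, and Ctss, the protease that trims the invariant chain, 3.40 and 3.53 against 2.84 and 2.98. The Irf8KO arrays were the lower ones for all 3. The classical chains differed: H2-Eb1 fell by 0.31, H2-Aa stood at -0.44 and H2-Ab1 at 0.17, both not called. With only the 4 Flt3+ arrays in the fit H2-Aa was called lower (limma adjusted p = 0.0161) and H2-Eb1 was not called. With the experiment as a block in the fit, or with any 1 of the 4 arrays left out, H2-Eb1 was not called. Ciita, the master regulator of the class, read -1.53 and -3.36 in wild type and -3.44 and -3.28 in Irf8KO, and its difference of -0.92 was not called (limma adjusted p = 0.28); without wild-type replicate 2 it was -1.83 and called (limma adjusted p = 0.0126).

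Of 21 tested lysosomal cathepsins, inhibitors and membrane proteins, 5 rose and 4 fell, with a median of 0.01. Ctsh, cathepsin H, read 2.58 and 2.58 in wild type and -0.27 and -0.28 in Irf8KO (7.22-fold lower, SE 0.0372 on the log2 scale). Ctse, cathepsin E, fell by 0.96, while Cst7, an inhibitor, rose by 0.75 and Ctsl by 0.57. Other cathepsins were close to 0, with Ctsb at -0.14, Ctsd at 0.00 and Ctsz at -0.02, none called. Without wild-type replicate 1 or either Irf8KO array 3 of these genes were called higher.

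Of 32 tested genes of early lymphoid cells, 14 rose and 6 fell, with a median of 0.27 (0.16 when dim genes are set to their bound). Il7r, the IL-7 receptor, read 0.04 and 0.13 in wild type and 1.72 and 1.84 in Irf8KO (3.24-fold higher). Rag1, the recombinase, read -0.52 and -0.78 against 1.12 and 1.27 (3.59-fold), and Dntt, terminal transferase, 6.81 and 6.91 against 7.79 and 7.92 (2.0-fold). Without Irf8KO replicate 2 the median was 0.14, with 10 genes higher and 4 lower. For Il7r, Rag1 and Dntt both Irf8KO arrays were above both wild-type arrays. Ly6d, a marker of B-lineage priming, rose by 2.31, Mzb1 by 1.59 and Ebf1, a B-lineage factor, by 1.66 (limma adjusted p = 0.0449). Ebf1 was not called when any 1 of the 4 arrays was left out. Bcl11a fell by 0.38 and Sox4 by 0.33.

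Of 14 tested genes of NK and T cells, 6 fell and 1 rose, with a median of -0.47 (-0.37 when dim genes are set to their bound). Klra8, an NK receptor of the Ly49 family, was at least 2.74-fold lower (with normexp -0.22 and not called), and Gzma, granzyme A, fell by 1.52 and Il2rb by 0.89 (with normexp -0.16 and not called). Xcl1, a chemokine, was at least 1.56-fold lower, but with normexp background correction its difference was 0.003 and not called, and 2 of the 14 genes fell, with a median of -0.10. The median was -0.15 among the 9 genes well above background on all 4 arrays. Prf1, perforin, stood at -0.03 and Cd3e at -0.14, neither called; Cd3e was called lower without wild-type replicate 2 (limma adjusted p = 0.0491).

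Of 38 tested cytokine receptors, 8 rose and 11 fell, with a median of 0.01. Ifngr1, a chain of the interferon gamma receptor, rose by 1.17 and Il6st, the shared gp130 chain, by 1.09. Il1r1, an interleukin 1 receptor, fell by 0.89. The chains of the GM-CSF and interleukin 3 receptors, Csf2ra (0.09), Csf2rb (0.14) and Il3ra (0.07), were not called. Without Irf8KO replicate 2, 5 receptors were called higher, and without Irf8KO replicate 1, 7 were called lower. Of 25 tested solute carriers, 6 rose and 7 fell, with a median of -0.02; besides Slc13a3 and Slc36a2 among the higher ones, Slc40a1, the iron exporter, fell by 1.69 and Slc7a8 by 1.90.

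Of 51 tested interferon-stimulated genes, 19 fell and 9 rose, with a median of -0.06, so that their share of lower calls was above and their median close to that of all genes. Ifi44 fell by 1.10, Gbp3 by 1.10 and Rsad2, viperin, by 0.61, while Oas2 rose by 1.34 and Isg15 by 0.42. Irf7 (-0.06), which relays the signal, was not called. The 19 lower calls became 12 without Irf8KO replicate 1, and the 9 higher calls 5 without wild-type replicate 1 and 4 without Irf8KO replicate 2. Of 26 tested immediate early and heat shock genes, 12 fell and 6 rose, with a median of -0.14. Fosb read 1.24 and 1.10 in wild type and -0.05 and -0.08 in Irf8KO, Egr1 3.30 and 3.38 against 2.40 and 2.46, and Dusp1, Zfp36 and Jun fell by 0.62, 0.66 and 0.57. Hspa1a, an inducible chaperone, rose by 1.74, and Egr2 by 1.59. Without Irf8KO replicate 2, 6 of the 12 lower calls were left.

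Of 37 tested genes of G2 and M phase, 33 rose and none fell, with a median of 0.46 (0.48 in experiment 1 and 0.44 in experiment 2). Aurka, a mitotic kinase, read 3.38 and 3.45 in wild type and 4.12 and 4.22 in Irf8KO (1.68-fold higher), and Ccnb1, cyclin B1, read 3.04 and 3.12 against 3.71 and 3.75 (1.57-fold). The differences were small, from 0.08 to 0.75, and the Irf8KO arrays were above the wild-type arrays for both genes. Mki67 rose by 0.54 and Cdc20 by 0.54. Genes of S phase differed less: of 35 tested, 8 rose and 3 fell, with a median of 0.06, and Pcna (-0.03), Mcm2 (-0.10) and Tyms (0.01) were not called. The 8 higher S phase calls became 3 to 5 without wild-type replicate 1 or either Irf8KO array, and with quantile normalization 5 were higher and 7 lower.

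Genes of ribosome biogenesis were close to the background, with 5 of 31 called higher, 2 lower and a median of 0.09. Fbl, fibrillarin, a core protein of the nucleolus, stood at 0.04. The 5 higher calls became 2 without wild-type replicate 1, 1 without Irf8KO replicate 1 and 0 without Irf8KO replicate 2. Of 25 tested genes of apoptosis, 4 rose and 5 fell, with a median of 0.06. Pmaip1, a BH3-only activator, rose by 1.47 and the death receptor Fas by 1.15, while Diablo, which frees caspases from their inhibitors, fell by 1.01. The 5 lower calls became 3 without Irf8KO replicate 1 and 2 without Irf8KO replicate 2.

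The difference between genotypes was then set beside that in Flt3- GPs from the same experiments. There 6158 genes (43.6%) were called. Of the 4089 genes called in Flt3+ GPs, 2485 were called in both populations: 913 higher in both, 953 lower in both, 408 higher in Flt3+ and lower in Flt3- GPs, and 211 the reverse; of those with opposite directions, 5 and 6 were not well above background in either genotype of a population. The difference itself, the interaction, was called for 4355 genes (30.9%), with the Flt3+ difference the higher for 3022 (21.4%) and the lower for 1333 (9.45%). Of the 597 called genes at least 2-fold apart in Flt3+ GPs, 334 had a called interaction.

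For some of the largest differences the interaction was not called. Ly86 stood at -8.46 in Flt3+ and -8.08 in Flt3- GPs (interaction -0.37, SE 0.182, adjusted p = 0.176 by limma), and Abca9 at 3.89 and 3.84 (interaction 0.05, SE 0.114). Hba-a2 fell by 6.64 in Flt3+ GPs, further than the difference of -5.02 in Flt3- GPs (interaction -1.62, adjusted p = 0.00144 by limma). Its Irf8KO means were close, at -1.83 in Flt3+ and -1.665 in Flt3- GPs, while its wild-type means were 4.81 and 3.36. Mmp8 rose by 5.25 in Flt3+ GPs, and in Flt3- GPs it was not well above background in wild type. Its difference there was 3.90 as fitted and at least 3.88 as a bound, so the sizes are not compared.

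The genes with the lowest interaction were Cavin2, E030013I19Rik, Klra8, Cd2 and Ppbp. Klra8 read -3.80 and -3.94 and -7.25 and -7.12 in wild-type and Irf8KO Flt3+ GPs, and -3.84 and -3.71 and -2.15 and -2.09 in the Flt3- GPs. As fitted it was lower in Irf8KO in one population and higher in the other (interaction -4.97, adjusted p = 8.27e-05 by limma). In Irf8KO Flt3+ GPs, however, Klra8 was not well above background, and the bound there was at least 2.74-fold lower. With normexp its Flt3+ difference was -0.22 and not called. Cavin2, at least 6.55-fold lower in Irf8KO Flt3+ GPs, had a difference of 0.70 in Flt3- GPs, and Cd2, a lymphocyte adhesion molecule, was at least 2.75-fold lower in the former and stood at 1.29 in the latter.

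Those with the highest interaction were Ly6d, Esm1, Wnt9a, Gpr25 and Cass4. Ly6d read 0.77 and 0.87 and 3.15 and 3.12 in Flt3+ GPs and -2.42 and -2.34 and -4.90 and -4.14 in Flt3- GPs, higher in Irf8KO in the former and lower in the latter (interaction 4.45, SE 0.325). Il7r rose by 1.70 in Flt3+ GPs and was not well above background in either genotype in Flt3- GPs. Esm1, an endothelial proteoglycan, had an Flt3+ difference of 3.35, Gpr25, an orphan receptor, of 2.96 and Cass4, an adhesion scaffold, of 1.59. Wnt9a, a Wnt ligand, was dim in wild-type Flt3+ GPs and at least 2.6-fold higher in Irf8KO.

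At the level of lists, G2 and M phase genes had a median difference of 0.46 in Flt3+ and -0.36 in Flt3- GPs, where 28 of 37 fell, and 36 of the 37 interactions were called in favour of Flt3+ GPs. S phase genes had medians of 0.06 and -0.47, with 32 of 35 interactions called, and ribosome biogenesis genes 0.09 and -0.41, with 29 of 31. Both lists lay in Flt3- GPs well below their Flt3+ values, beside 21.4% of all genes with an interaction in this direction. In the other direction, interferon-stimulated genes had medians of -0.06 and 0.18, with 24 of 51 interactions called lower in Flt3+ GPs, immediate early and heat shock genes -0.14 and 0.42, with 14 of 26, and platelet and megakaryocyte genes -0.97 and -0.41, with 13 of 26, beside 9.45% of all genes.

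**Figure D5:**
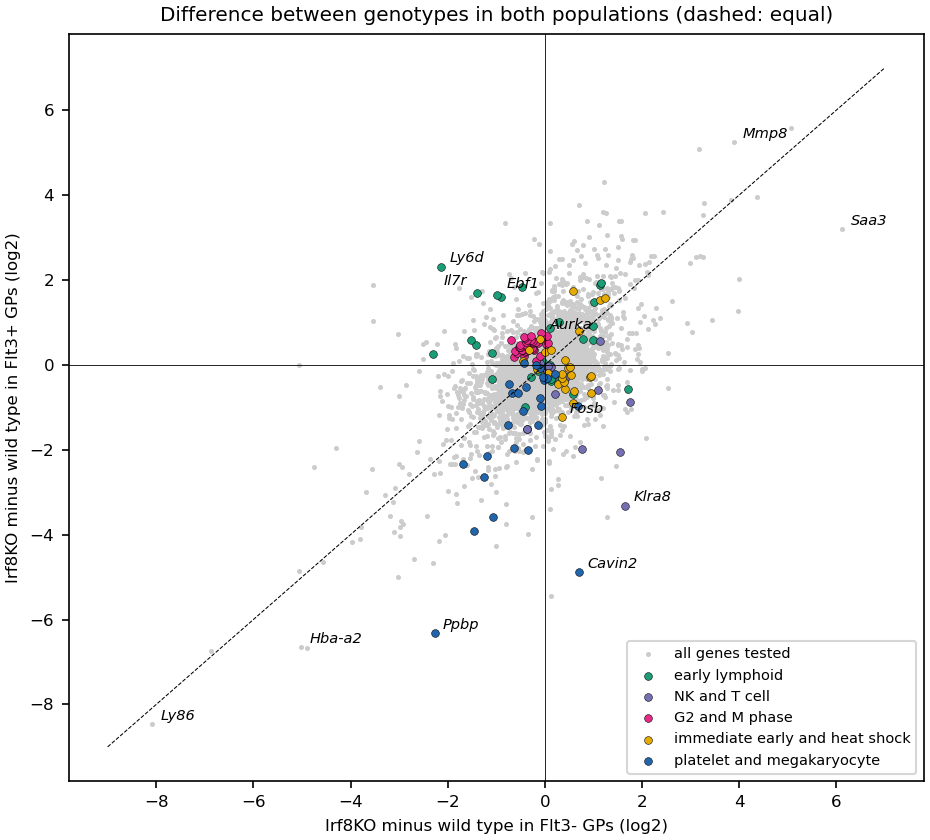
Difference between Irf8KO and wild type (log2) in Flt3+ GPs (vertical axis) against that in Flt3- GPs (horizontal axis) for all tested genes (grey), with 5 gene lists in colour and a dashed line where both are equal. Ly86 and Mmp8 differ in the same direction in both populations, Ly6d lies at the upper left (Il7r, also there, is dim in both Flt3- groups), and Klra8 and Cavin2 at the lower right.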

How the data were processed

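RNA of sorted cells was hybridised to 8 one-colour (Cy3) Agilent arrays in 4 groups of 2. Per the file headers, the deposited spot intensities come from Agilent Feature Extraction 10.7.3.1 (protocol GE1_107_Sep09). They are linear brightness values with no scaling between arrays, and the flags for background, saturation and outliers were used as deposited by the authors. The sources used here do not say how the authors made their series table, an alternative here; its values look linear and not centred, with column medians of 26.9 to 29.9 and the same 75th percentile (426.2) in each.

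Control and outlier spots (93 to 178 per array) were removed, replicate spots averaged, and log2 values taken relative to the 75th percentile over probes. A probe was kept where both arrays of 1 or more groups had it well above background. Of 55681 probes, 26762 were named through RefSeq accessions (GRCm38.p6) and 28919 were not named here. The probe with the highest mean stood for a gene with several probes (3677 of 14110 genes); 5 genes lacked a value on an array. A limma 3.58.1 model (R 4.3.3) with a mean for each group took in all 8 arrays (4 residual and 1.76 prior degrees of freedom), with Benjamini-Hochberg adjustment over 14110 genes; it was tested on simulated data. Genes were called at an adjusted p under 0.05. Against a dim group, fold changes are lower bounds: the dim array is set to its lowest well-measured probe signal, or to the signal of the gene's own probe where that is higher. For normexp, with an offset of 50, median spot signals were used.

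Named genes were the 15 highest and 15 lowest among called genes whose arrays did not overlap, Irf8, Flt3, Ly86, Mmp8, Hba-a2 and Hba-a1, up to 6 called genes and the defining members of each of 34 lists, and the 5 genes at each end of the interaction. Some further members are named beside them, chosen after their values were seen, and some members of the lists are not reported here. Members, lists and tests were chosen with earlier results of these data known. The labels describe the numbers as 2 independent experiments, so they pair the samples; deviations from the group means correlated at 0.123 between the Flt3+ groups and at -0.028 to 0.045 between the other pairs of groups, so the pairing rests on the labels and not on this check. The alternatives tried were other scalings, background correction, filters, probe rules, fits and leaving out arrays.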

Additional observations from a re-analysis of the deposited data

Results flagged for a closer look

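Each value below is the difference between genotypes (Irf8KO minus wild type, log2) in Flt3+ GPs minus that in Flt3- GPs, and is given because this test of the difference between the populations passed by limma. It passed for 147 of the 242 genes named, beside 30.9% of all genes tested. Some of the genes named were chosen by this same difference or by a large difference in Flt3+ GPs, so these shares are not compared. The values cover those of the 15 lowest and 15 highest genes, of the 5 genes at each end of this difference and of the genes chosen by name, and those that were called in opposite directions in the populations.

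Of the erythroid list 9 interactions were called in each direction, and its median difference was -0.83 in Flt3+ and -1.04 in Flt3- GPs, so the genes here do not stand for the list. Hba-a1 (-1.77), Hba-a2 (-1.62), the basophil protease Prss34 (-1.89) and the adhesion molecule Vcam1 (-3.27) fell further in Flt3+ GPs, and the platelet genes Cavin2 (-5.59) and Vwf (-1.65) went opposite ways in the populations. The wild-type means of Hba-a1 (3.13 and 1.70) and Hba-a2 (4.81 and 3.36) were themselves higher in Flt3+ than in Flt3- GPs. Alas2 (-1.96), Ppbp (-4.06) and Upb1 (-1.97) were not well above background in Irf8KO in either population, and Spib (-2.38) passed on only 1 of its 4 Irf8KO arrays, so that how far they fell in each is not compared. E030013I19Rik (-5.56) was called lower in Flt3+ GPs and was dim in both Flt3- groups.

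NK and lymphocyte genes stood at -4.97 (Klra8), -4.88 (Cd2), -3.58 (Xcl1), -2.65 (Il2rb) and -1.64 (Cxcr3), each lower in Irf8KO in Flt3+ GPs and higher in Flt3- GPs. Of these, Klra8, Cd2 and Xcl1 were not well above background in Irf8KO Flt3+ GPs. With normexp the Flt3+ differences of Klra8, Xcl1 and Il2rb were not called. The same directions held for the immediate early genes Fosb (-1.58), Egr1 (-1.48), Dusp1 (-1.21), Jun (-0.99) and Zfp36 (-1.6), and for Mpeg1 (-1.20), Mefv (-1.12), Irf9 (-0.55) and Sox4 (-0.64).

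The reverse held for the lymphoid genes Ly6d (4.45) and Mzb1 (2.49), the mitotic genes Ccnb1 (1.08), Cdc20 (0.72) and Mki67 (0.78), and Cx3cr1 (2.15), Ms4a3 (1.87) and Cass4 (3.11). Genes higher in Irf8KO by more in Flt3+ GPs were Trem3 (3.06), Mrgpra2a (2.41), Mrgpra2b (2.30), Slc36a2 (1.90), Otogl (1.87) and Tctex1d1 (0.54). Esm1 (4.18), Wnt9a (3.23), Insm1 (3.09) and Gpr25 (3.17) were called higher in Flt3+ GPs and not in Flt3- GPs. Il7r (3.08) rose in Flt3+ GPs and, like Wnt9a and Insm1, was dim in both Flt3- groups. For Mmp8 (1.35) and Cp (2.52) the wild-type Flt3- group was dim, and for Clec5a (1.51) the wild-type Flt3+ group, so that the sizes in the populations are not compared. Tmem178 (-0.41) and the sorted receptor Flt3 (-0.94) differed more in Flt3- GPs. Adjusted p ran from 8.27e-05 to 0.0435 by limma. Where a probe was dim in a group, its value depends on the background.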

How the results depend on the processing

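The count of 4089 called genes (2323 higher, 1766 lower) stayed within 1.5 times with quantile normalization (4165), the median of well-measured probes as the scale (4030), normexp background correction (3874), the deposited series table (4050), probes above background on all 4 Flt3+ arrays (4012), the mean of the probes of a gene (4002), a mean-variance trend (5086) and the 75th percentile over spots (4012), an alternative chosen after seeing the data. With no filter on dim probes 2679 genes were called, 1450 of them higher, and 2725 interactions in place of 4355. With only the 4 Flt3+ arrays in the fit 2666 were called, 1324 higher, and the interaction could not be fitted. Leaving out 1 array, where the lone array of its group is assumed to vary like the other groups, gave 1995 to 3476 called genes, 990 to 2114 higher and 988 to 1439 lower, and 2515 to 4416 interactions. The count of genes at least 2-fold apart was 236 with normexp and 393 where dim genes were removed, against 597. With the experiment number as a replicate block 4010 genes were called, 3707 of them among the 4089, and of the genes named only H2-Eb1 lost its call (limma adjusted p = 0.0658), while Il5ra became called. Among the 242 genes named, the direction of a value called in either fit changed only for Klf1 (0.082) and Xcl1 (0.003) with normexp and Siglech (-0.53) with the mean of its probes. With normexp Il1rl1, Il2rb, Itga2, Kel, Klra8, Maf, Gp5, Naip1 and Ncf4 were no longer called either. With no filter Ebf1, H2-Eb1, Naip1 and Ncf4 lost their calls, with quantile normalization Ebf1, Naip1 and Ncf4, with only the 4 Flt3+ arrays Cebpe, H2-Eb1, Klf1 and Ncf4, and with the trend Klf1. Calls gained were those of Csf2rb and Ctsb with the trend, Ctsb, Mcm2 and Pcna with quantile normalization, Irf4 and Mcm2 with normexp, Irf4 and H2-Aa with only the 4 Flt3+ arrays, and Ciita and Cd3e without wild-type replicate 2. With normexp the difference was over 1.5 times smaller for 71 of 199 named genes that were called. The cause of these changes was not tested. Signal near background limits the values of genes that are dim in 1 genotype, for which only bounds are given.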

Other observations

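Some further genes outside the lists, chosen after their values were seen, differed strongly in Flt3+ GPs. C3, the central complement component, read 0.63 and 0.78 in wild type and 3.65 and 3.68 in Irf8KO (7.78-fold higher, adjusted p = 4.94e-06 by limma). Saa3, an acute phase protein, was not well above background in wild type and at least 2.6-fold higher in Irf8KO, and Hes1, a target of Notch signalling, was likewise dim in wild type and at least 1.97-fold higher.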
